A study of Mus musculus with 18 samples.

Results

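The 10 genes described here are markers of Kupffer cells, the resident macrophages of the liver sinusoids. They were chosen by symbol (Cd5l, Clec4f, Vsig4, Timd4, Csf1r, C1qa, C1qb, C1qc, Marco and Cd163) and are 10 of the 23930 genes of a targeted panel that reads 1 amplicon per gene in RNA of whole mouse liver. All mice carried Yap fl/fl, the floxed allele of Yap1, which encodes a transcriptional coactivator of the Hippo pathway. The 6 groups hold 3 libraries each: ethanol-fed and pair-fed Yap KO, ethanol-fed and pair-fed YAP OE, and ethanol-fed and pair-fed control. At 8 weeks of age, Yap KO mice received AAV-TBG-Cre at a dose of 0.5, YAP OE mice AAV-TBG-YAP-P2A-EGFP at a dose of 2 and control mice AAV-TBG-GFP at a dose of 2, in units of 1e11 genome copies per mouse. The dose of virus therefore differed between Yap KO and control, and the controls received no Cre. TBG is a hepatocyte promoter, so that the virus was aimed at hepatocytes and not at the cells whose genes are described here. Feeding began 2 weeks after the virus, with 5 days on Lieber-DeCarli control diet followed by 4 weeks of Lieber-DeCarli ethanol diet in the ethanol-fed groups. Ethanol-fed mice were then gavaged with ethanol (5 g/kg, 33% v/v) and pair-fed mice with maltose-dextrin, and livers were taken 9 hours later. The labels give no sex for the mice and do not say whether libraries come from different animals, so p-values measure the spread between libraries, which may be technical.

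Kupffer cells clear bacteria, aged red cells, immune complexes and dying cells from portal blood. They depend on signals through the CSF1 receptor and on transcription factors such as PU.1 (Spi1) and LXR-alpha (Nr1h3). In mice, Timd4 is commonly used to tell long-resident Kupffer cells from macrophages newly derived from monocytes. In whole tissue, fewer cells of a type and less RNA per cell cannot be told apart.

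Libraries held 4680152 to 5806228 reads. Levels are in CPM, the reads of a gene scaled to 1000000 reads per library, so that 1 read equals 0.172 to 0.214 CPM. Yap1, the targeted gene, read 3.34 to 5.08 CPM in ethanol-fed Yap KO, 4.18 to 15.1 CPM in pair-fed Yap KO, 106.4 to 144 CPM in ethanol-fed YAP OE, 58.1 to 66.6 CPM in ethanol-fed control and 51.5 to 60.7 CPM in pair-fed control. In pair-fed YAP OE it read 57.6, 155 and 214 CPM, and the library labelled pair-fed YAP OE replicate 1 lies within the control range. The RNA of the X-inactivation gene Xist was above that of the Y-linked Ddx3y in all 3 pair-fed Yap KO libraries and in pair-fed control replicates 2 and 3 (348 to 423 CPM of Xist). The other 13 libraries had 54.0 to 128.8 CPM of Ddx3y and at most 2.75 CPM of Xist. Diet and sex chromosome pattern thus cannot be told apart within Yap KO, and they are partly confounded in control. The ethanol-fed groups of all 3 genotypes and the pair-fed YAP OE group share 1 pattern. Ethanol-fed control replicate 1 stood apart in these genes, with a summed CPM of the 10 markers of 615 against 289.9 and 288 in the other libraries of its group.

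Promoter sequences are shown because several of these genes moved together, and PU.1 is a factor on which macrophage genes commonly depend. The windows are the 250 bases before the RefSeq start of each gene (GRCm38.p6), 5′ to 3′ on the strand of the gene, with capitals marking the PU.1 core GAGGAA or its reverse complement TTCCTC. Of the 10 markers, 8 had a window that was used here, and none was used for C1qa and Csf1r. The 5 genes that follow were lower in ethanol-fed than in pair-fed Yap KO livers, and Cd163 is the member whose level differed least there.
Cd5l, chr3:87357631-87357880, plus strand: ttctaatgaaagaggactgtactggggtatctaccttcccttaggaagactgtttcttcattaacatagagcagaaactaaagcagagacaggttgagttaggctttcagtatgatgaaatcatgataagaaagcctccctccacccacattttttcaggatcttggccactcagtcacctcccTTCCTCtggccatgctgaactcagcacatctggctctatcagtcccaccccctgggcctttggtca
Clec4f, chr6:83656117-83656366, minus strand: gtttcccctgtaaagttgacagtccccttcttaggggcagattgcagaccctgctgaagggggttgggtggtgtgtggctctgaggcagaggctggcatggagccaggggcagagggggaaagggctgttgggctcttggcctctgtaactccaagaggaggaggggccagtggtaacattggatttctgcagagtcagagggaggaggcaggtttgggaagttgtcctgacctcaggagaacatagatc
Vsig4, chrX:96293439-96293688, minus strand: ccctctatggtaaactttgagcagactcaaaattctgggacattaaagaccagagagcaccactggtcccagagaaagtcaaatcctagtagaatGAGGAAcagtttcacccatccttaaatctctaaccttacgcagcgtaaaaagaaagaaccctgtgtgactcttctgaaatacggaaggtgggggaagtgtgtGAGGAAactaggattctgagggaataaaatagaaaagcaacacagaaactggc
Timd4, chr11:46810549-46810798, plus strand: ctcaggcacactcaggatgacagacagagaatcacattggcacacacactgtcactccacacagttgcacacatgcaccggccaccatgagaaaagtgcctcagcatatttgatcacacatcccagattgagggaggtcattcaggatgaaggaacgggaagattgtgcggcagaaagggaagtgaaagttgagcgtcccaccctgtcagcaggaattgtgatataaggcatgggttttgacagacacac
C1qb, chr4:136886201-136886450, minus strand: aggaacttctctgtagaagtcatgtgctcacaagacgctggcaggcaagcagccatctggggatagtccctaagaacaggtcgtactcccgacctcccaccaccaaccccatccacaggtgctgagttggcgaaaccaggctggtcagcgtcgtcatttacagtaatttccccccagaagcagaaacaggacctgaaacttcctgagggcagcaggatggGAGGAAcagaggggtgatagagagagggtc
Cd163, chr6:124304401-124304650, plus strand: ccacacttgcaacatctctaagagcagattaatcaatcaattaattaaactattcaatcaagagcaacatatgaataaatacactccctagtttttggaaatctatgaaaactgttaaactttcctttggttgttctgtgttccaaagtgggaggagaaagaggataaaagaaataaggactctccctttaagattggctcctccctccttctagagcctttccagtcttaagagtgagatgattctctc
The PU.1 core, searched on both strands, was found in 5 of the 8 windows, those of Cd5l, Vsig4 (2 matches), C1qb, Marco and C1qc, against 23.3% of 32851 windows of the same length. The core of Cd5l starts 66 bases before the gene start, those of Vsig4 155 and 53 bases, and that of C1qb 30 bases. PU.1 was 1 of 3 motifs searched, and each of the 3 was found in a larger share of the 8 windows than of all windows. For the RBPJ core TGGGAA or TTCCCA these were 2 of 8 windows and 21.6% of all windows, which are near each other and show no excess. Neither of these motifs contains the other. A match describes letters in a window and not binding, and Clec4f, Timd4 and Cd163 hold no PU.1 core in these 250 bases.

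Of the 10 markers, 9 passed the filter of at least 1 CPM in at least 3 libraries. Cd5l gave 345 to 1590 reads per library, Clec4f 218 to 762, Vsig4 up to 529, Cd163 76 to 529, C1qb 58 to 360 and Csf1r 50 to 243. Marco, at 9 to 196 reads, and Timd4, at 13 to 60 reads, were measured with larger counting error. C1qc had 0 to 16 reads per library and a median of 0.920 CPM, so no fold change of it is given, and C1qa had 3 reads in all and was not tested. C1qc reached its highest value, 3.06 CPM, in pair-fed control replicate 3. The panel reads 1 amplicon per gene, so levels are compared only within a gene. The group mean was lowest in ethanol-fed Yap KO for 7 of the 9 markers that passed (all but Marco and Cd163, both lowest in pair-fed YAP OE). It was highest in pair-fed Yap KO for 6 (Cd5l, Clec4f, Vsig4, Timd4, Csf1r and C1qb). In the order of group means, ethanol-fed Yap KO lay wholly below its nearest neighbour for Cd5l, Clec4f, Vsig4, Csf1r and C1qb, but not for Timd4. Of the 5 neighbouring pairs in each order, 0 to 2 were free of overlap, so most neighbours did not differ beyond their spread.

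**Figure D1:**
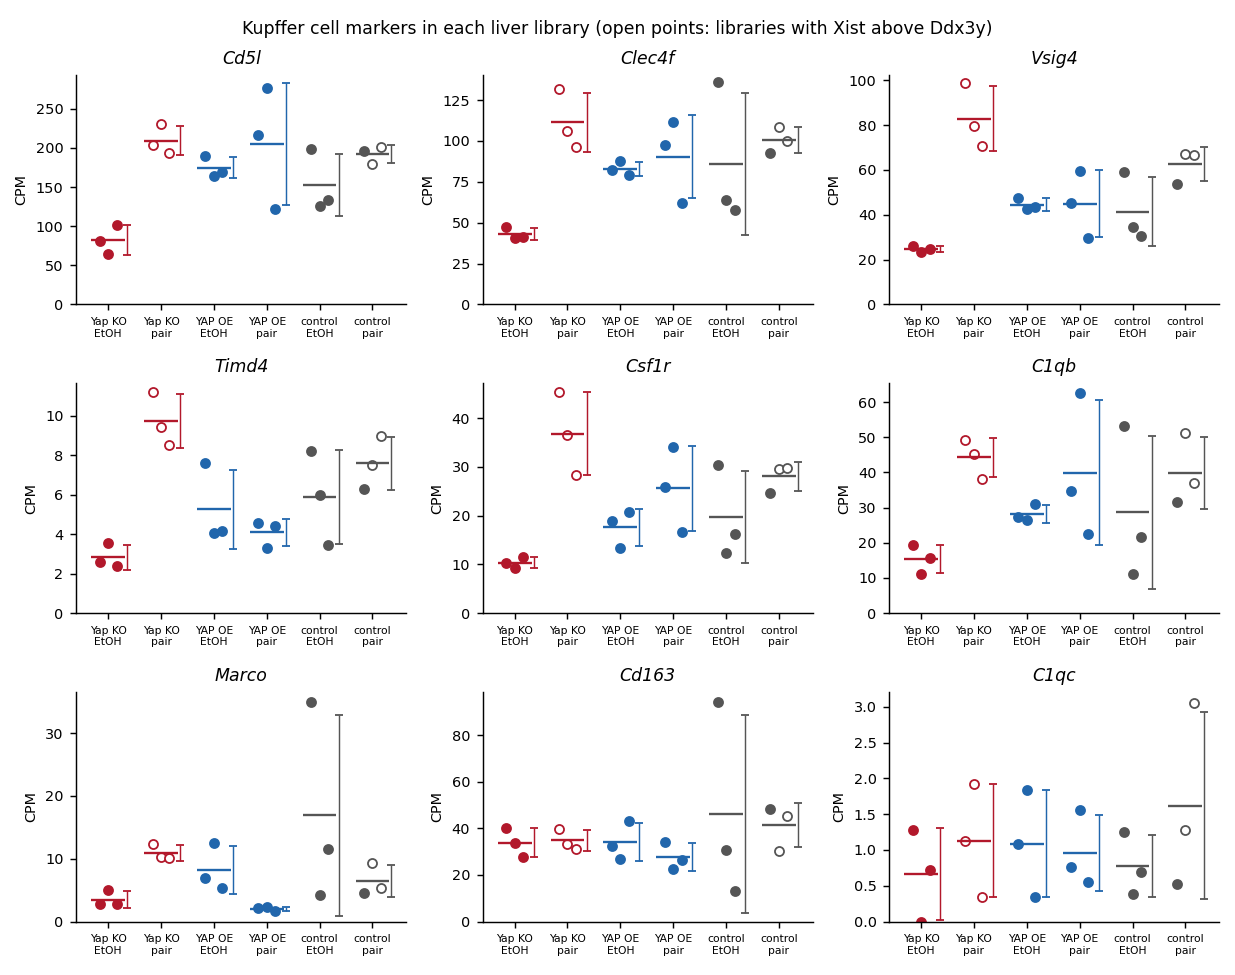
CPM of 9 markers in each library (points), with the group mean (line) and SD (bar, n = 3), for ethanol-fed and pair-fed Yap KO, YAP OE and control livers. Open points are the 5 libraries with Xist above Ddx3y. Ethanol-fed Yap KO is the lowest group for 7 of the 9 genes, and ethanol-fed control replicate 1 lies far above the other libraries of its group for Marco and Cd163.

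In Yap KO livers, 6 of the 9 tested markers were lower on ethanol than on pair-feeding, between groups that also differ in sex chromosome pattern: Cd5l, Clec4f, Vsig4, Timd4, Csf1r and C1qb, by 2.53-fold to 3.29-fold. Over all 11720 genes tested, 5.79% were lower by the same rule (limma, two-sided, adjusted p under 0.05 over all genes) and 9.90% were called in either direction. The median log2 fold change was -1.44 over the 9 markers and -0.052 over all genes. Groups did not overlap for 7 markers, the 6 named and Marco, where 16.9% of all genes were lower without overlap.

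Cd5l, a secreted scavenger receptor cysteine-rich protein of tissue macrophages, read 81.0, 64.0 and 102 CPM in ethanol-fed Yap KO livers, against 204, 229.9 and 194 CPM in pair-fed Yap KO livers. Every ethanol-fed library lay below every pair-fed one, and the log2 fold change was -1.36 ± 0.24 (SE; limma adjusted p = 0.00219). Clec4f, a C-type lectin restricted to Kupffer cells in the mouse, read 47.6, 40.5 and 41.2 CPM in ethanol-fed Yap KO livers, against 131.4, 105.98 and 96.5 CPM in pair-fed ones. The groups were again apart, and the log2 fold change was -1.34 ± 0.26 (limma adjusted p = 0.00321). Vsig4, the complement receptor CRIg that binds C3b and iC3b, read 26.2, 23.2 and 24.7 CPM on ethanol, against 98.8, 79.5 and 70.5 CPM on pair-feeding. Its ethanol-fed libraries lay close together, and its log2 fold change of -1.70 ± 0.24 had the smallest adjusted p of the markers (0.000406, limma).

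Timd4, a receptor for phosphatidylserine on dying cells, read 2.56, 3.52 and 2.36 CPM in ethanol-fed Yap KO livers, against 11.2, 9.40 and 8.53 CPM in pair-fed Yap KO livers. The groups did not overlap, and the log2 fold change was -1.49 ± 0.29 (limma adjusted p = 0.00328). Csf1r, the receptor for CSF1 and IL-34, read 10.3, 9.28 and 11.4 CPM on ethanol, against 45.4, 36.5 and 28.4 CPM on pair-feeding. It had the lowest log2 fold change of the markers, -1.72 ± 0.29 (limma adjusted p = 0.00146). C1qb, a chain of the complement component C1q, read 19.2, 11.1 and 15.8 CPM on ethanol, against 49.3, 45.3 and 38.1 CPM on pair-feeding, with a log2 fold change of -1.49 ± 0.40 (limma adjusted p = 0.0229). Its call was lost without pair-fed Yap KO replicate 1 or 2 or ethanol-fed Yap KO replicate 2 (limma adjusted p = 0.0582, 0.0732 and 0.1003). The 6 markers thus fell together in Yap KO livers, with groups apart for each.

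Marco and Cd163 did not pass the test in Yap KO livers. Marco, a collagenous scavenger receptor for bacteria and particles, read 2.75, 5.01 and 2.72 CPM on ethanol, against 12.3, 10.3 and 10.1 CPM on pair-feeding (log2 fold change -1.44 ± 0.47, limma adjusted p = 0.0605). Its groups did not overlap, and DESeq2 called it lower (adjusted p = 0.0264). So did limma without ethanol-fed control replicate 1 or 2, which enter through the shared spread (adjusted p = 0.0146 and 0.0203). Cd163, the scavenger receptor for haemoglobin bound to haptoglobin, read 40.1, 33.8 and 27.9 CPM on ethanol, against 40.0, 33.3 and 31.2 CPM on pair-feeding. Its ranges overlapped almost fully, and its log2 fold change was -0.043 (95% interval -0.93 to 0.85).

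The barcode numbers of the libraries form 3 ranges, each with 1 ethanol-fed and 1 pair-fed Yap KO library. Within each range the 6 markers were lower on ethanol, by differences of -2.04 to -0.93 on the log2 scale. With a term for the sex chromosome pattern, 0 markers were called by limma, and 0 genes in all. In that fit Cd5l stood at -1.40 (adjusted p = 0.440), Vsig4 at -1.39 (0.435) and C1qb at -1.04 (0.819). The term rests on pair-fed controls alone, where the library with Ddx3y read 53.7 CPM of Vsig4, against 67.0 and 66.7 CPM in those with Xist.

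Under YAP overexpression, 0 of 9 markers were called between ethanol-fed and pair-fed livers by limma or by edgeR, against 1.15% of all genes, and DESeq2 called Marco. Marco read 6.86, 12.5 and 5.34 CPM in ethanol-fed YAP OE livers, against 2.08, 2.26 and 1.65 CPM in pair-fed YAP OE livers. All 3 ethanol-fed libraries were higher than all pair-fed ones (7.83% of all genes did so), and Marco was the one marker with an unadjusted p under 0.05 (4.87% of all genes were higher at that level). Its log2 fold change was 1.55 ± 0.47 (limma adjusted p = 0.113, and 0.0364 without ethanol-fed control replicate 1). Clec4f read 82.3, 87.7 and 79.1 CPM on ethanol, against 97.5, 111.5 and 62.0 CPM on pair-feeding. Vsig4 read 47.7, 42.5 and 43.4 CPM on ethanol, against 45.2, 59.6 and 29.7 CPM on pair-feeding. Both overlapped, with log2 fold changes of -0.079 (95% interval -0.62 to 0.46) for Clec4f and 0.043 (-0.46 to 0.55) for Vsig4. Cd5l read 190.1, 164 and 169.6 CPM on ethanol, against 216, 277 and 122 CPM on pair-feeding, with the pair-fed values both above and below the ethanol-fed ones (-0.15 ± 0.24). Without the library labelled pair-fed YAP OE replicate 1, Marco stood at 1.58 (limma adjusted p = 0.212) and again 0 markers were called.

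In control livers, 0 of 9 markers were called between ethanol and pair-feeding by limma, edgeR or DESeq2, against 2.70% of all genes in limma. Vsig4 alone had an unadjusted p under 0.05, at which level 11.8% of all genes were lower. The log2 fold changes were negative for 8 of 9 markers, with a median of -0.37 over the markers and -0.086 over all genes. Vsig4 read 59.0, 34.6 and 30.7 CPM in ethanol-fed control livers, against 53.7, 67.0 and 66.7 CPM in pair-fed control livers (-0.63 ± 0.24, limma adjusted p = 0.171). In replicates 2 and 3, ethanol-fed values of Vsig4 lay below all pair-fed ones. Cd5l read 199, 126.1 and 133 CPM on ethanol, against 196, 179 and 202 CPM on pair-feeding (-0.36 ± 0.24). Cd163 read 94.2, 30.9 and 13.2 CPM on ethanol, against 48.3, 30.5 and 45.3 CPM on pair-feeding. Marco read 34.9, 4.25 and 11.6 CPM on ethanol, against 4.55, 9.31 and 5.36 CPM on pair-feeding. In all 4 genes ethanol-fed control replicate 1 was the highest library of its group. Without it, the values were -0.91 for Vsig4 (limma adjusted p = 0.0475), -0.97 for Cd163, -1.27 for C1qb and 0.19 for Marco. Pair-fed control replicates 2 and 3 had Xist above Ddx3y and ethanol-fed control libraries did not, so diet and this pattern are partly confounded. With the sex chromosome term, 0 markers had an unadjusted p under 0.05, and limma called 23 genes in all against 316 without it.

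**Figure D2:**
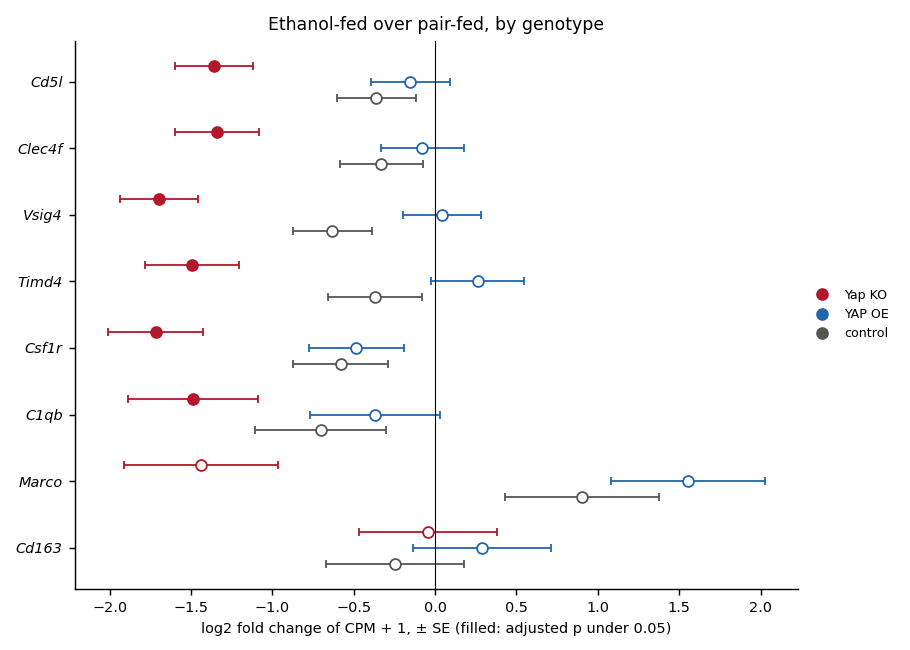
Log2 fold change of CPM + 1, ethanol-fed over pair-fed, with its SE, for 8 markers in Yap KO, YAP OE and control livers. Filled points passed an adjusted p of 0.05 in limma: they are 6 of the Yap KO points, at -1.72 to -1.34, while 0 points of YAP OE or control are filled.

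The difference between these responses was tested directly. For Yap KO minus control, limma, edgeR and DESeq2 each called 0 markers, and limma called 0 of all genes. At an unadjusted p under 0.05, 6 markers had a lower response in Yap KO (Cd5l, Clec4f, Vsig4, Timd4, Csf1r and Marco), against 2.53% of all genes. Their values ran from -2.34 ± 0.67 for Marco to -0.998 ± 0.34 for Cd5l. With 1 library left out, Marco ran from -3.01 to -1.63, Clec4f from -1.24 to -0.63 and Timd4 from -1.41 to -0.89. Csf1r ran from -1.40 to -0.79, Vsig4 from -1.24 to -0.78 and Cd5l from -1.16 to -0.79. For Yap KO minus YAP OE, a contrast added after the values had been seen, Marco (-2.99 ± 0.67), Timd4 (-1.76 ± 0.40) and Vsig4 (-1.74 ± 0.34) were called by limma. Their adjusted p-values were 0.0370, 0.0415 and 0.0192, and 0.410% of all genes were called in this direction. Both interactions hold the sex chromosome pattern of pair-fed Yap KO, and the one with control also holds the mixed pattern of pair-fed control. With the term for this pattern, 0 of the 3 calls remained (1 gene in all was called). The values with the term were -2.45 ± 0.98 for Marco, -1.42 ± 0.60 for Timd4 and -1.43 ± 0.50 for Vsig4, each with a larger SE. Marco stood at -1.22 with a pseudocount of 10 (limma adjusted p = 0.156) and lost its call without a filter (0.102). Timd4 lost its call with quantile normalization (0.0518) and without a filter (0.111). The calls were sensitive to single libraries: of the 18 fits that each left out 1 library, 11 lost the call of Marco, 13 that of Timd4 and 2 that of Vsig4. For Marco they were each library of the 4 groups compared other than ethanol-fed Yap KO replicate 2, and for Timd4 each library of these groups and ethanol-fed control replicate 2. All 3 were lost without ethanol-fed YAP OE replicate 1 (limma adjusted p = 0.0540 to 0.107) or pair-fed YAP OE replicate 3 (0.0510 to 0.0907). Without the library labelled pair-fed YAP OE replicate 1, Vsig4 was the one marker called (-1.77, limma adjusted p = 0.0392). For YAP OE minus control, limma, edgeR and DESeq2 called 0 markers and limma 0% of all genes, and 0 markers had an unadjusted p under 0.05 (3.89% of all genes were lower and 3.34% higher). This difference also holds the mixed sex chromosome pattern of pair-fed control.

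The ethanol-fed groups share 1 sex chromosome pattern and could be compared between genotypes without that difference. Cd5l was higher in ethanol-fed YAP OE than in ethanol-fed Yap KO livers, 2.14-fold, with the values given above (1.10 ± 0.24, limma adjusted p = 0.0223). It was the one marker of 9 called, where 0.529% of all genes were called higher. Without overlap, 7 markers were higher in ethanol-fed YAP OE (Cd5l, Clec4f, Vsig4, Timd4, Csf1r, C1qb and Marco), against 8.94% of all genes. The same 7 had an unadjusted p under 0.05, against 5.86% of all genes. Clec4f averaged 83.0 ± 4.35 CPM in ethanol-fed YAP OE and 43.1 ± 3.95 CPM in ethanol-fed Yap KO (SD, n = 3 each), a log2 fold change of 0.93 ± 0.26 (limma adjusted p = 0.0670). Vsig4 averaged 44.5 ± 2.74 CPM in ethanol-fed YAP OE and 24.7 ± 1.499 CPM in ethanol-fed Yap KO (0.83 ± 0.24, limma adjusted p = 0.0879). Csf1r read 18.8, 13.3 and 20.7 CPM in ethanol-fed YAP OE, against 10.3, 9.28 and 11.4 CPM in ethanol-fed Yap KO. The lowest YAP OE library lay just above the highest Yap KO one, and the log2 fold change was 0.70 ± 0.29 (limma adjusted p = 0.250). The difference in Cd163 had a 95% interval of -0.89 to 0.89. Fitted to the 13 libraries with Ddx3y alone, Cd5l was again called (1.10, limma adjusted p = 0.0415). Its call was lost without ethanol-fed Yap KO replicate 1 or 2, or without any 1 of the ethanol-fed YAP OE libraries (limma adjusted p = 0.0667 to 0.116). Without ethanol-fed control replicate 1, Cd5l, Clec4f and Vsig4 were called (limma adjusted p = 0.0156, 0.0150 and 0.0488).

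Against ethanol-fed control livers, 0 of 9 markers were called in ethanol-fed Yap KO livers by limma or edgeR, where 0.0171% of all genes were called, and DESeq2 called Clec4f and Marco. All 9 log2 fold changes were negative, with a median of -0.78 over the markers and 0.058 over all genes. At an unadjusted p under 0.05, 6 markers were lower in Yap KO (Cd5l, Clec4f, Vsig4, Timd4, Csf1r and Marco), against 2.99% of all genes. Groups were apart for 4 of them, Cd5l, Clec4f, Vsig4 and Csf1r, where 5.21% of all genes were lower without overlap. Cd5l averaged 82.2 ± 18.8 CPM in ethanol-fed Yap KO and 153 ± 40.0 CPM in ethanol-fed control (SD, n = 3 each), a log2 fold change of -0.88 ± 0.24 (limma adjusted p = 0.340). Clec4f stood at -0.87 ± 0.26 and Marco at -1.61 ± 0.47 (both limma adjusted p = 0.340). Without ethanol-fed control replicate 1 these values moved to -0.68 for Cd5l, -0.49 for Clec4f and -0.90 for Marco, and Cd163 stood at 0.70.

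Between ethanol-fed YAP OE and ethanol-fed control livers, limma, edgeR and DESeq2 called 0 of 9 markers (0.102% of all genes in limma) and limma gave 0 at an unadjusted p under 0.05 (4.39% of all genes were lower and 4.45% higher). The log2 fold changes ran from -0.61 for Marco to 0.24 for C1qb. The 95% interval was -0.29 to 0.73 for Cd5l and -1.60 to 0.38 for Marco.

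**Figure D3:**
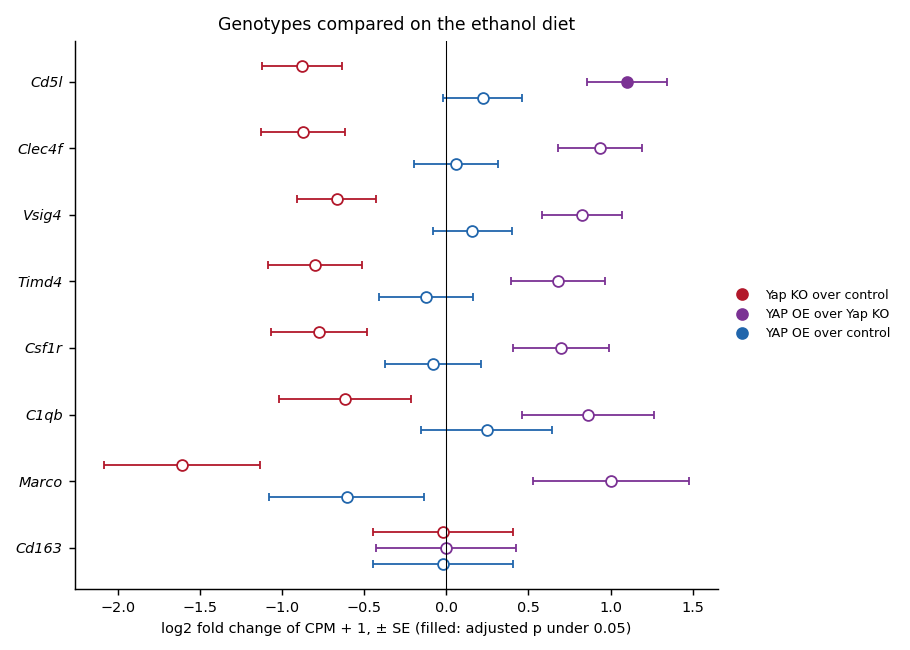
Log2 fold change of CPM + 1, with its SE, between genotypes on the ethanol diet: Yap KO over control, YAP OE over Yap KO and YAP OE over control, for 8 markers. All 8 markers lie below 0 for Yap KO over control and 7 lie above 0 for YAP OE over Yap KO, and the filled point is Cd5l at 1.10.

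On the pair-fed diet, limma, edgeR and DESeq2 called 0 of 9 markers in Yap KO over control, where limma called 0.00853% of all genes, and 0 had an unadjusted p under 0.05 (1.41% of all genes were lower and 1.72% higher at that level). Vsig4 read 98.8, 79.5 and 70.5 CPM in pair-fed Yap KO, against 53.7, 67.0 and 66.7 CPM in pair-fed control. Marco read 12.3, 10.3 and 10.1 CPM in pair-fed Yap KO, against 4.55, 9.31 and 5.36 CPM in pair-fed control. Both were higher without overlap, as were 3.84% of all genes, with log2 fold changes of 0.40 ± 0.24 for Vsig4 and 0.73 ± 0.47 for Marco. The pair-fed control libraries are of mixed sex chromosome pattern, 1 with Ddx3y and 2 with Xist.

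Pair-fed YAP OE livers also had 0 of 9 markers called against pair-fed control by limma, edgeR and DESeq2 (0.145% of all genes in limma). Marco read 2.08, 2.26 and 1.65 CPM in pair-fed YAP OE, against 4.55, 9.31 and 5.36 CPM in pair-fed control. Timd4 read 4.54, 3.30 and 4.40 CPM in pair-fed YAP OE, against 6.30, 7.48 and 8.99 CPM in pair-fed control. Both were lower without overlap, as were 7.57% of all genes, with log2 fold changes of -1.26 ± 0.47 and -0.75 ± 0.29 (limma adjusted p = 0.441 and 0.448). With Vsig4 (-0.52 ± 0.24), 3 markers had an unadjusted p under 0.05 (4.25% of all genes were lower at that level). Pair-fed control holds 2 libraries with Xist and pair-fed YAP OE 0, and with the sex chromosome term 0 markers had an unadjusted p under 0.05 (Marco -0.89, Timd4 -0.53 and Vsig4 -0.31). Without the library labelled pair-fed YAP OE replicate 1, Marco stood at -1.28 and Timd4 at -0.82.

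Correlations were taken among the 6 markers that fell in Yap KO. They were chosen by that shared fall, which itself raises their correlation over the 18 libraries. Over the 18 libraries their 15 pairs had a median Pearson r of 0.86 on log2(CPM + 1), from 0.54 to 0.94. Within groups, on deviations from the 6 group means, the median was 0.79. Timd4, the member with the fewest reads of these 6, had a median r with the other 5 of 0.73 over the 18 libraries and 0.29 within groups. Marco had medians with the 6 of 0.42 over the 18 libraries and 0.52 within groups, and Cd163 of 0.29 and 0.51. Within groups, Marco and Cd163 thus had higher medians than Timd4. Ethanol-fed control replicate 1, far above its group for Marco and Cd163, enters these values, and its part in them was not tested. These correlations share libraries and their depth, and are given as a description.

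**Figure D4:**
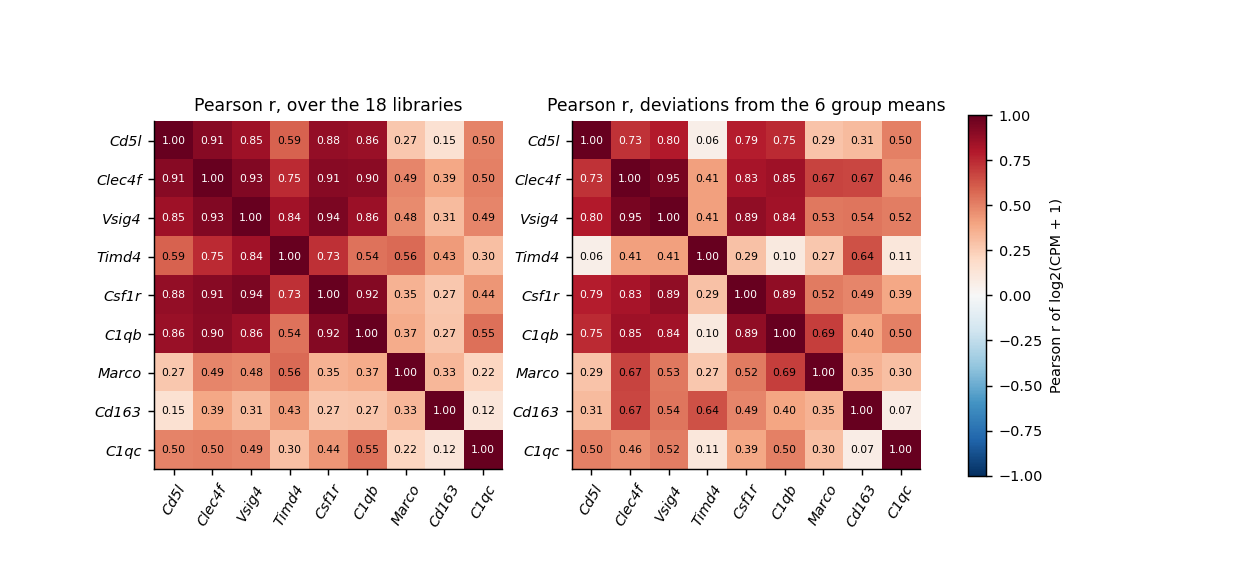
Pearson r between the markers on log2(CPM + 1), over the 18 libraries (left) and over deviations from the 6 group means (right). Cd5l, Clec4f, Vsig4, Csf1r and C1qb form the block of high values in both panels. Marco, Cd163 and C1qc lie outside it in both, and Timd4 lies outside it within groups, where its values with the block are 0.06 to 0.41.

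Other macrophage genes were set beside the markers. For these and the lists that follow, the sex chromosome pattern differs between the diets wholly in Yap KO and partly in control. It does not differ in YAP OE. Of 10 pan-macrophage genes, 6 were lower in ethanol-fed than in pair-fed Yap KO livers and 0 higher, with a median log2 fold change of -1.18, where 5.79% of all genes were called lower. They were Adgre1, the F4/80 antigen (-1.22), the lysosomal Cd68 (-1.48), the efferocytosis receptor Mertk (-0.90), the adaptor Tyrobp (-1.20), Aif1 (-1.80) and the MHC class II invariant chain Cd74 (-1.29). In YAP OE and in control, 0 of the 10 were called between diets by limma, where 1.15% and 2.70% of all genes were called. Their summed level was 148 to 210.3 CPM in ethanol-fed against 369 to 512 CPM in pair-fed Yap KO, and 209 to 249 CPM in ethanol-fed against 322 to 378 CPM in pair-fed control. It was 248 to 279.5 CPM in ethanol-fed against 271 to 814 CPM in pair-fed YAP OE. The sums were lower on ethanol without overlap in Yap KO and in control, and overlapped in YAP OE. In Yap KO, 16.9% of all single genes were also lower without overlap. The sums are a description and were not tested.

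Of 21 other genes known from Kupffer cells that were tested, 10 were lower on ethanol in Yap KO and 0 higher, against 5.79% of all genes called lower, with a median log2 fold change of -1.08. Hpgd, which inactivates prostaglandins, averaged 39.5 ± 8.11 CPM in ethanol-fed Yap KO and 111.5 ± 17.99 CPM in pair-fed Yap KO (SD, n = 3 each; limma adjusted p = 0.000425). Pltp, the phospholipid transfer protein, averaged 51.6 ± 14.3 CPM in ethanol-fed and 195 ± 56.0 CPM in pair-fed Yap KO (limma adjusted p = 0.00612), and the heparan sulphate proteoglycan Sdc3 18.7 ± 3.01 CPM in ethanol-fed and 66.9 ± 15.0 CPM in pair-fed Yap KO (0.000406). The others were Siglec1 (-1.89), Cfp (-1.65), Folr2 (-1.54), Il18bp (-1.19), Ptgs1 (-1.19), Mrc1 (-1.13) and Kcna2, which read 0.366 ± 0.181 CPM in ethanol-fed and 2.05 ± 1.37 CPM in pair-fed Yap KO. The ethanol-fed mean of Kcna2 lies below the 0.517 to 0.641 CPM that 3 reads equal, so its call rests on very few reads. In control livers, Hpgd (-1.04) and Sdc3 (-0.998) were the 2 of the 21 lower on ethanol (limma adjusted p = 0.0140 and 0.0404), and in YAP OE livers 0 were called. The summed level of this list was also lower without overlap in YAP OE, at 420.2 to 479 CPM on ethanol against 559 to 723 CPM on pair-feeding. In control it overlapped, at 479 to 613 CPM on ethanol against 545 to 873 CPM on pair-feeding. These sums were not tested.

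Partners of single markers moved less evenly. Between diets, 9.90% of all genes were called by limma in Yap KO (5.79% lower), 1.15% in YAP OE and 2.70% in control. Where 0 or 1 gene of a list was called in Yap KO, the share is near that of all genes and is no result about the list. Of 8 genes of CSF1 receptor signalling, Tyrobp was the one lower in Yap KO on ethanol, and 0 of 9 tested ligands and niche signals of Kupffer cells were called in the ethanol comparisons of the 3 genotypes. In Yap KO the 2 of these with the smallest p were Il34 (-0.84) and Bmp10 (-0.65). Of 6 phosphatidylserine receptors and bridging proteins tested beside Timd4, Mertk and Axl (-1.67) were lower in Yap KO on ethanol. Of 6 genes of haemoglobin handling tested beside Cd163, the plasma haemoglobin binder Hp was higher (1.29) and Lrp1 lower (-0.82) in Yap KO on ethanol. Hmox1, which degrades haem, averaged 209.8 ± 128.8 CPM in ethanol-fed and 33.3 ± 7.92 CPM in pair-fed control livers (2.45, limma adjusted p = 0.00336). It was lower in ethanol-fed Yap KO than in ethanol-fed control, at 32.9 ± 15.2 CPM (-2.54, limma adjusted p = 0.0241). Of 8 scavenger receptors tested beside Marco and Cd5l, Scara5 was called, at 8.76 ± 6.07 CPM in ethanol-fed Yap KO and 0.0713 ± 0.124 CPM in pair-fed Yap KO. On ethanol it was also lower in YAP OE than in Yap KO, at 0.418 ± 0.378 CPM in YAP OE (limma adjusted p = 0.0489). Of 7 genes of C3, its receptors and its inactivators, 0 were called in the ethanol comparisons, and in Yap KO the one with the smallest p was C3ar1 (-0.94). Serping1, the C1 inhibitor, was the one partner of C1q tested and was not called (0.29 in Yap KO).

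Among 12 transcription factors and regulators of Kupffer cell identity, Zeb2 was the one called on ethanol in Yap KO, and was lower (-1.24, limma adjusted p = 0.0140). A share of 1 in 12 is near the 9.90% of all genes called there and is no result about the regulators. Of 6 macrophage cytokine and sensor genes tested, the chemokine Cxcl1 was higher on ethanol in Yap KO (2.25) and in control (2.92), and Il1b in control (1.78).

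Some markers of other cell types were also lower on ethanol in Yap KO, and their part in the result was not tested. Among them were 2 dendritic cell markers, 1 lymphocyte marker, and Lyz2, Lpl and Ttr, which are given below. In this comparison 5.79% of all genes were called lower and 9.90% in either direction. A single call in a short list is no result about a cell type. Summed levels are given as a description and were not tested. The summed level of 8 dendritic cell markers was 24.2 to 33.2 CPM in ethanol-fed and 66.2 to 107.5 CPM in pair-fed Yap KO libraries, with H2-Aa and H2-Ab1 the 2 of 4 tested that were lower. Both are MHC class II genes that macrophages also transcribe. The dendritic cell sum was lower without overlap in the other genotypes too, at 31.9 to 41.5 CPM in ethanol-fed against 51.2 to 150.4 CPM in pair-fed YAP OE, and 22.2 to 23.9 CPM in ethanol-fed against 43.2 to 88.4 CPM in pair-fed control. The 10 lymphocyte markers read here summed to 2.04 to 3.99 CPM in ethanol-fed and 6.97 to 9.62 CPM in pair-fed Yap KO libraries, and Cd3g was the 1 of 6 tested that was lower. The 8 neutrophil markers summed to 5.31 to 6.53 CPM in ethanol-fed and 3.31 to 7.10 CPM in pair-fed Yap KO libraries, with 0 of 4 tested called and Mpo at 0 in all 18 libraries. Of 12 sinusoidal endothelial markers, 1 was called, Lyve1, and it was higher on ethanol (1.84), with sums of 379 to 567 CPM in ethanol-fed and 543 to 573 CPM in pair-fed Yap KO.

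Of 12 stellate cell and 5 tested cholangiocyte markers, 0 were called in Yap KO, with median log2 fold changes of -0.34 and -0.65. Of 6 tested monocyte genes Lyz2 was lower (-1.08), of 5 tested lipid-associated macrophage genes Lpl was lower (-1.63), and of 5 hepatocyte genes Ttr was lower (-0.79). The hepatocyte sum was also lower without overlap, at 45051 to 49321 CPM in ethanol-fed and 56191 to 78645 CPM in pair-fed Yap KO libraries. Over all genes 5.79% were called lower there and 9.90% in either direction, so a single call in lists this short is no result about a cell type. In control livers on ethanol, the genes of these cell type lists called were H2-Aa (-1.57) and the endothelial Dnase1l3 (-0.87), Lyve1 (2.45) and Pecam1 (0.78). In YAP OE livers 0 were called. Of all genes, 2.70% were called in control and 1.15% in YAP OE.

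**Figure D5:**
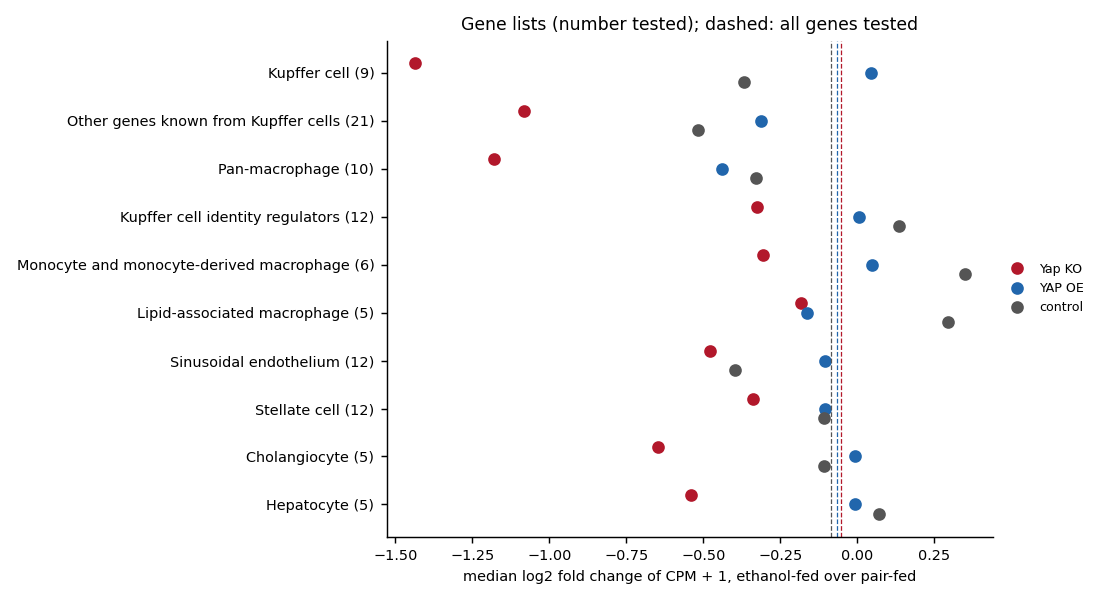
Median log2 fold change of CPM + 1, ethanol-fed over pair-fed, of the gene lists shown (number tested in brackets) in Yap KO, YAP OE and control livers. Medians over all genes are dashed. In Yap KO the medians of the Kupffer cell, other Kupffer cell and pan-macrophage lists lie at -1.44, -1.08 and -1.18, and the other lists shown between -0.65 and -0.18. The dendritic cell, lymphocyte and neutrophil lists are not plotted. In Yap KO the dendritic cell sum was also lower, at 24.2 to 33.2 CPM on ethanol against 66.2 to 107.5 CPM on pair-feeding. The lymphocyte sum was lower too, at 2.04 to 3.99 CPM on ethanol against 6.97 to 9.62 CPM on pair-feeding.

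The genes most like the markers were ranked by Pearson r with the mean z-score of the 9 markers over the 18 libraries, among 8449 other genes with a mean of at least 5 CPM. The first was Cfp, the complement regulator properdin (r = 0.91, and 0.94 within groups). Adgre4 (0.89), Folr2 (0.89), Mrc1 (0.88), Fyb (0.86), Axl (0.86), Ptgs1 (0.85) and Dmpk (0.84) followed. Cfp averaged 9.40 CPM in ethanol-fed Yap KO, 31.6 in pair-fed Yap KO, 11.5 in ethanol-fed YAP OE, 14.7 in pair-fed YAP OE, 14.9 in ethanol-fed control and 24.0 in pair-fed control. Its group means were lowest in ethanol-fed and highest in pair-fed Yap KO, as for 6 of the markers.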

How the data were processed

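The authors deposited CPM (reads of a gene scaled to 1000000 reads per library) for 23930 panel genes in 18 liver libraries and, per the file headers, log2(RPM + 1) values of each library, made with ampliSeqRNA 5.10.1.2. The deposited log2 values equal log2(CPM + 1) within 2.0e-06. At least 99.7% of CPM values gave whole reads (tolerance 0.02 reads). No aligner is named, and the build is not given in the sources used here. Symbols are those of the panel. Genes with at least 1 CPM in 3 libraries (11720) were fitted with limma 3.58.1 (lmFit, eBayes with trend; R 4.3.3) on log2(CPM + 1), with a mean per group over all 18 libraries. Tests were two-sided with Benjamini-Hochberg adjustment over all genes of each of 11 contrasts. Fold changes are on the log2(CPM + 1) scale, which understates low genes. All 10 members are named. Of pathway lists, genes past the threshold are named, or else the 2 of smallest p, and of all kept genes the 8 most like the members. The members and lists were chosen with earlier results of these data known. Alternatives were filters, pseudocounts of 0.1 and 10, TMM, quantile normalization, blocks for replicate and barcode range, a sex chromosome term, the compared libraries alone, edgeR 4.0.16 and DESeq2 1.42.0 run on recovered whole reads, and omission of each library in turn. A fit to the 13 libraries with Ddx3y and the contrast of Yap KO minus YAP OE responses were chosen after seeing the data. Simulated data of 11545 genes, for Yap KO over control on ethanol, had 94% of its 4-fold and 38% of its 2-fold changes called, and 4 unchanged genes called. Listed genes absent from the panel table were not analysed here, and values of some listed genes are not reported here.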

Additional observations from a re-analysis of the deposited data

Results flagged for a closer look

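The ethanol responses of Yap KO and YAP OE livers differed for 3 markers by the test of the difference itself (limma, adjusted over all genes). For Marco the difference was -2.99 on the log2 scale, made up of -1.44 in Yap KO and 1.55 in YAP OE. For Timd4 it was -1.76, made up of -1.49 in Yap KO and 0.26 in YAP OE. For Vsig4 it was -1.74, made up of -1.70 in Yap KO and 0.043 in YAP OE. The contrast was added after the values had been seen. The sex chromosome pattern differs between the diets in Yap KO and not in YAP OE, so that genotype and pattern cannot be told apart in this difference.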

How the results depend on the processing

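The number of markers called depended on the setting in 6 comparisons, and the cause was not tested. For ethanol in Yap KO it was 0 with the sex chromosome term, and 5 to 7 with 1 library left out. For ethanol in YAP OE it was 1 in the compared libraries alone, 1 with DESeq2, and 0 to 1 with 1 library left out. For Yap KO over control on ethanol DESeq2 called 2. For YAP OE over Yap KO on ethanol it was 2 with TMM, 2 with the replicate block, 3 in the compared libraries alone, 3 with DESeq2, and 0 to 3 with 1 library left out. For the response of Yap KO minus YAP OE it was 1 without a filter, 0 with the sex chromosome term and 0 to 4 with 1 library left out. For ethanol in control it was 0 to 1 with 1 library left out, and 0 in each of the other 5 comparisons. Same-numbered libraries deviated together little (median r 0.03 over 45 pairs, 6 of them over 0.1), so the numbers were not taken as pairs, and the replicate block changed no other count of calls by over 1.5 times.

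Some uncalled log2 fold changes turned sign. Cd163 turned for ethanol in control (edgeR 0.25, DESeq2 0.24), ethanol in Yap KO (TMM 0.021, edgeR 0.029, DESeq2 0.0082), YAP OE over Yap KO on ethanol (pseudocount 10 0.00043, TMM 0.052, quantile 0.083, edgeR 0.069, DESeq2 0.071) and the response of Yap KO minus control (edgeR -0.22, DESeq2 -0.23). Clec4f turned for ethanol in YAP OE (TMM 0.0040) and YAP OE over control on ethanol (quantile -0.0054, edgeR -0.043, DESeq2 -0.045). Cd5l turned for YAP OE over control on pair-feeding (quantile -0.011, sex chromosome term -0.016). C1qb turned for that comparison (sex chromosome term 0.21), YAP OE over control on ethanol (edgeR -0.013, DESeq2 -0.015) and for the response of YAP OE minus control (edgeR -0.0078, DESeq2 -0.012). Csf1r turned for that response (sex chromosome term -0.075, edgeR -0.027, DESeq2 -0.033). With 1 library left out, ranges that crossed 0 are given by comparison. For ethanol in control they were Cd163 -0.97 to 0.41. For ethanol in Yap KO they were Cd163 -0.17 to 0.085. For ethanol in YAP OE they were Cd5l -0.48 to 0.10, Clec4f -0.33 to 0.092, Vsig4 -0.22 to 0.27, C1qb -0.71 to 0.0098. For Yap KO over control on ethanol they were Cd163 -0.67 to 0.70. For YAP OE over control on pair-feeding they were Cd5l -0.24 to 0.35, Clec4f -0.36 to 0.055, Csf1r -0.41 to 0.088, C1qb -0.47 to 0.25. For YAP OE over control on ethanol they were Clec4f -0.17 to 0.44, Marco -1.28 to 0.11, Vsig4 -0.022 to 0.44, Csf1r -0.35 to 0.27, Timd4 -0.40 to 0.12, C1qb -0.26 to 0.81, Cd163 -0.67 to 0.70. For YAP OE over Yap KO on ethanol they were Cd163 -0.18 to 0.15. For the response of Yap KO minus control they were Cd163 -0.45 to 0.92. For the response of YAP OE minus control they were Cd5l -0.12 to 0.46, Marco -0.023 to 1.36, Csf1r -0.17 to 0.44, C1qb -0.17 to 0.90, Cd163 -0.12 to 1.25. In simulated data for Yap KO over control on ethanol, with 3 libraries a group, 38% of 2-fold changes were recovered. Other comparisons were not simulated. Marco, Timd4 and C1qc had the fewest reads of the tested markers, and so the largest counting error.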
